A study of Mus musculus with 15 samples.

Results

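Genes that carry the beta-adrenergic signal of the heart, from its receptor through cyclic AMP to protein kinase A and the enzymes that end it, were followed through pressure overload and neuregulin-1 treatment in the mouse left ventricle. They are the receptor gene Adrb1, the adenylyl cyclase genes Adcy5 and Adcy6, the protein kinase A genes Prkaca, Prkacb, Prkar1a and Prkar2a, and the phosphodiesterase genes Pde3a, Pde4b and Pde4d. They make up 10 of the 15258 genes in the deposited tables, and all 10 were among the 11018 genes with enough reads to test. Prkar1a was chosen by its rise with NRG1 in these same libraries, so its NRG1 values are given as a description with no test. The other genes were taken as parts of the same signalling chain.

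The 15 libraries came from the left ventricle of male C57BL/6NRj mice and form 3 groups of 5. The sham saline group had sham surgery and minipumps with saline. The TAC saline group had transverse aortic constriction, a narrowing of the aortic arch that makes the left ventricle pump against a raised pressure, and minipumps with saline. The TAC NRG1 group had the same constriction and minipumps with NRG1, the growth factor neuregulin-1β, which acts on ERBB receptors of heart muscle cells. All 15 libraries are labelled as batch 1. The labels state no age, dose or length of treatment, and no group pairs sham surgery with NRG1, so an effect of NRG1 without constriction was not measured. Libraries were made by BRB-seq, which barcodes the 3′ end of each transcript, so a value counts transcript ends and is not divided by length. The labels do not say whether the libraries of a group came from separate mice, and p-values then measure only the spread between these samples, which may be technical.

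In the heart muscle cell, noradrenaline and adrenaline bind the beta-1 receptor, which acts through the stimulatory G protein on adenylyl cyclase, and the cyclase makes cyclic AMP. Cyclic AMP binds the regulatory subunits of protein kinase A (PKA) and frees its catalytic subunits, which phosphorylate calcium channels, phospholamban, the ryanodine receptor and troponin I, so that the beat becomes stronger and relaxation faster. Phosphodiesterases break cyclic AMP down near particular targets, and loss of beta-1 receptors and of cyclase activity is a textbook feature of the failing heart.

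Depth ran from 2017468 to 5621775 reads per library with a median of 3392974. Levels below are in CPM, reads scaled to a common library size on the authors' scale, taken from the deposited log2 values. Libraries TAC NRG1 4 and TAC NRG1 5 stood apart from the other 3 of their group: they had the fewest reads, 2017468 and 2131135, and the highest summed level of the 5 red cell genes, 3488 and 3340 CPM against 1703 to 2113. Where they moved a difference of the 10 genes by a change of sign or by over 1.5 times, the value without them is given too. The labelled tissue was checked by its markers: all 11 cardiomyocyte genes were present, with summed levels of 86320 to 93000 in sham saline, 76820 to 92660 in TAC saline and 76260 to 94630 in TAC NRG1. Of these 11, 1 rose and 3 fell in TAC saline against sham saline. Tnnt2 alone passed in TAC NRG1 against TAC saline, where it rose (limma adjusted p = 0.0351). In TAC NRG1 against sham saline 1 rose and 5 fell. Of 5 atrial markers, Sln and Bmp10 were not listed in any library and Myl7 had too few reads to test. Myl4 passed in no comparison, with averages of 2.74 CPM for sham saline, 2.96 for TAC saline and 2.98 for TAC NRG1. Nppa, the natriuretic peptide gene of the atria that the loaded ventricle also expresses, averaged 196.8, 657.0 and 1773 and rose in all 3 comparisons (log2 difference 1.69 under pressure overload and 1.45 with NRG1, limma adjusted p = 1.61e-06 and 2.04e-05). Of 9 fibroblast markers 5 rose and 1 fell in TAC saline against sham saline, and of 10 macrophage markers 6 rose and none fell. Of all genes tested, 10.7% passed in that comparison. The share was 1.3% in TAC NRG1 against TAC saline and 16.1% in TAC NRG1 against sham saline. All 5 red cell genes rose in TAC NRG1 against TAC saline and against sham saline. Of 9 endothelial markers none passed under pressure overload and 1 fell with NRG1, and of 9 smooth muscle and pericyte markers 1 rose and 1 fell under pressure overload and none passed with NRG1. Lymphocyte markers summed to at most 5.49 CPM and adipocyte markers to at most 5.81 in any library, with 5 of 9 (among them Cd3e, Cd3g, Cd8a and Cd79a) and 4 of 7 (Plin1, Lep, Retn and Ucp1) not listed. Nerve and Schwann markers summed to 8.71 to 13.8 CPM in sham saline, 8.97 to 15.6 in TAC saline and 13.4 to 22.1 in TAC NRG1, with Th not listed. The mitochondrial share of reads averaged 31.1% ± 0.47 for sham saline, 27.7% ± 1.62 for TAC saline and 25.8% ± 2.35 for the NRG1 group (SD, n = 5 each). Ventricle is a mixture of cells, and in bulk RNA fewer cells of a type and less RNA per cell cannot be told apart; the part of these differences in the results below was not tested.

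Cyclic AMP also reaches genes, because PKA phosphorylates CREB, a transcription factor that binds the cyclic AMP response element, TGACGTCA. The RefSeq promoter windows (build GRCm38.p6, 250 bases before to 50 after each annotated start) were searched for that element and for its shorter core, TGACG, on both strands, to show which genes of the chain carry these letters near a start. Windows were at hand for 8 of the 10 genes, 19 windows in all; Adcy6 and Pde3a had none. The whole element was found in 1 of the 8 genes, Prkar1a, in 2 overlapping windows that hold the same copy, where 588 of all 32851 windows (1.79%) hold it. The core, which lies inside the whole one, was found in 8 of the 19 windows, where 20.8% of all windows hold it. The 2 overlapping Prkar1a windows are both among the 8 and hold the same copies of the core. The share of windows is therefore not read as a difference. Windows of a gene can overlap and a gene had from 1 to 6 of them, so shares of genes are not compared. The 8 windows belong to 6 genes: the 5 whose stretches follow and Prkar2a, where the core begins 4 bases before the start. The stretches below are written 5′ to 3′ on the gene's strand, with the whole element of Prkar1a and the core of the others, TGACG or its reverse complement CGTCA, in capitals.
Prkar1a: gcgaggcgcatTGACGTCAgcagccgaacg
Prkaca: tctgcaactcgCGTCActcatccagga
Prkacb: gggcttgaccgCGTCActtccggcgcg
Adrb1: ctgcgggagccTGACGcgcggccccgg
Pde4b: atttggctgcaCGTCAattttctcatc
The Prkar1a stretch lies at chr11:109650889-109650918 on the plus strand. Its element begins 49 bases before one of the annotated starts of the gene and 38 bases after another. The capitals begin 120 bases before the start in Prkaca (chr8:83972847-83972873, plus strand), which holds a second copy of the core 6 bases before it, 102 in Prkacb (chr3:146813033-146813059, minus strand), 90 in Adrb1 (chr19:56722016-56722042, plus strand) and 34 in Pde4b (chr4:102421510-102421536, plus strand). Reads from transcript ends do not show which start was used, and a match of letters is a description of the window, not of binding.

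Pressure overload alone moved a pair of the 10 genes past the threshold, an adjusted p of 0.05 in limma with Benjamini-Hochberg adjustment over all 11018 genes. Prkar1a rose and Pde4d fell, and the other 8 did not pass in TAC saline against sham saline. Of all genes tested, 10.7% passed in this comparison, 6.47% higher and 4.24% lower, and a count of 2 of 10 is not read as particular to these genes. The fitted differences of 8 of the 10 genes were below 0, with a median log2 difference of -0.18 beside -0.01 over all genes tested. When libraries were scaled by total reads alone, the median of all genes moved to 0.10, and the calls over all genes split into 1078 higher of 1269, against 713 higher of 1180 on the authors' scale; small negative differences below are relative to that choice.

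NRG1 under constriction went with a higher level of Prkar1a in every library and with no change past the threshold in the other 9 genes. Among those 9, none rose or fell in TAC NRG1 against TAC saline in limma, and limma with voom weights also called none. An unadjusted limma p under 0.05 was reached by 5 of the 9, beside 1691 of all 11018 genes tested. Few genes of any kind were called here: 1.3% of all tested, 0.672% higher and 0.626% lower. The median log2 difference of the 9 was 0.21, beside -0.01 over all genes tested. Set against sham saline, TAC NRG1 showed 1 of the 9 genes higher, Prkaca, and none lower, where 16.1% of all genes passed, 8.74% higher and 7.39% lower. Under total reads alone that comparison called 1364 genes higher of 1798, against 963 of 1777. The comparisons share libraries, so a gene that was low in TAC saline tends to look lower in one and higher in another; each comparison's values are given side by side for that reason.

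**Figure D1:**
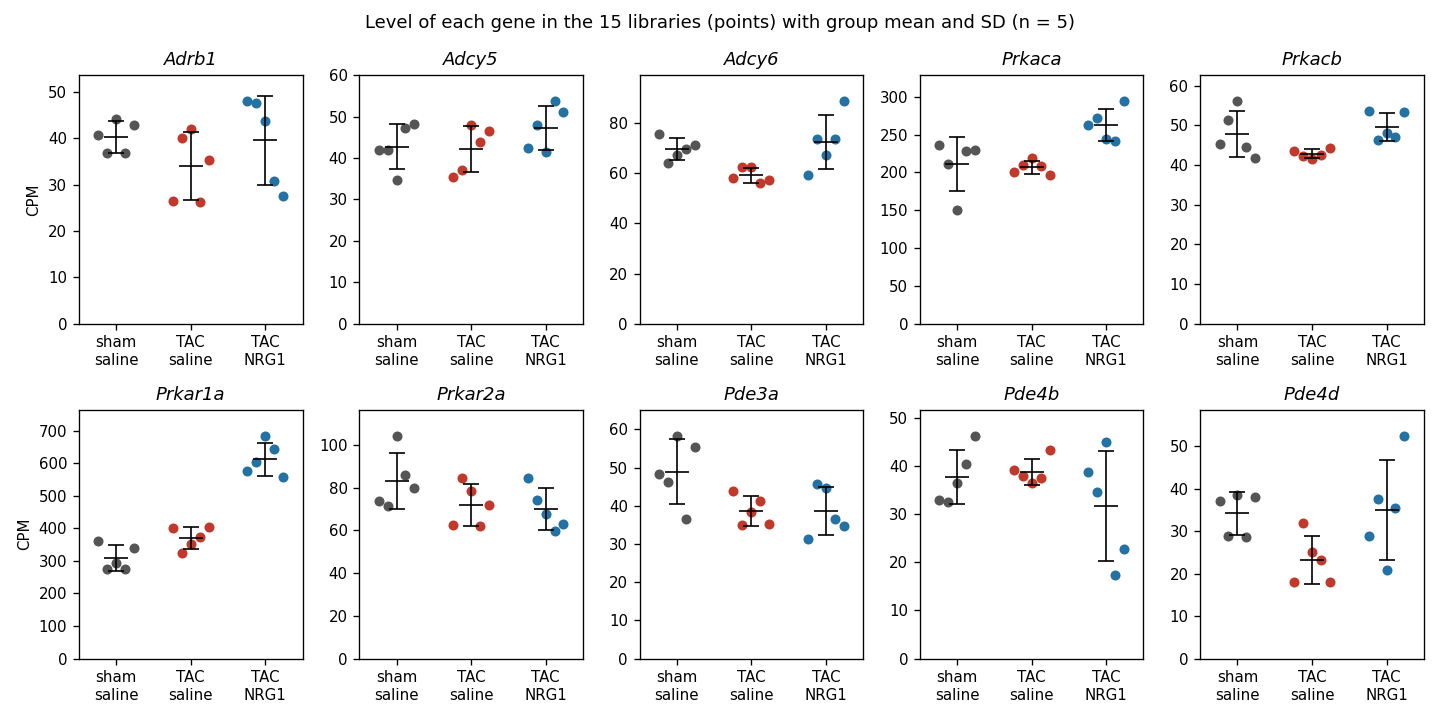
Level of each of the 10 genes in CPM (vertical axes, starting at 0) in sham saline, TAC saline and TAC NRG1; points are the 5 libraries of a group and bars the mean and SD. Prkar1a lies between 556.7 and 682.5 in TAC NRG1, above every library of the other groups, and Pde4b stands at 17.4 and 22.8 in libraries 4 and 5 of TAC NRG1.

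Adrb1 encodes the beta-1 adrenergic receptor, the main beta receptor of ventricular muscle. Its level was 40.8, 36.8, 44.2, 36.8 and 42.9 CPM in the sham saline libraries, 26.5, 40.1, 42.1, 26.3 and 35.2 in TAC saline, and 48.0, 47.6, 43.7, 30.9 and 27.6 in TAC NRG1. The sham libraries were close together. TAC saline spread from low to sham-like values and TAC NRG1 from below to above the sham range, and both overlapped with sham. TAC saline averaged 34.0 ± 7.41 (SD, n = 5) against 40.3 ± 3.43 in sham saline, a log2 difference of -0.27 ± 0.15 (SE; 95% interval -0.58 to 0.05) that did not pass in limma (adjusted p = 0.305). The NRG1 difference was 0.21 ± 0.15 (interval -0.11 to 0.52, limma adjusted p = 0.557). The lower values of TAC NRG1 were those of libraries 4 and 5. Without them the difference from TAC saline was 0.47 ± 0.14 (limma adjusted p = 0.176), and that from sham saline turned from -0.06 to 0.21. The 3 genes nearest to Adrb1 in profile over the libraries, by the measure explained below for Prkar1a, were Ankra2 (0.180), Cuedc1 (0.185) and Arhgef18 (0.191), where the median gene was at 0.373.

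The adenylyl cyclases 5 and 6 are the calcium-inhibited forms that prevail in heart muscle. Adcy5 stood at 41.9, 41.8, 34.6, 47.1 and 48.3 in sham saline, 35.4, 37.1, 48.0, 43.9 and 46.5 in TAC saline, and 42.4, 47.9, 41.4, 53.6 and 51.0 in TAC NRG1. The 3 groups overlapped throughout. Pressure overload left a log2 difference of -0.02 ± 0.11 with an interval of -0.25 to 0.21, so a change of that size in either direction could not be told from none (limma adjusted p = 0.943). The NRG1 difference was 0.17 ± 0.11 (limma adjusted p = 0.509), and TAC NRG1 differed from sham saline by 0.15 ± 0.11 (limma adjusted p = 0.424). Libraries 4 and 5 held the highest values, and without them these differences were 0.07 and 0.05.

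Adcy6 was lower in every TAC saline library than in any sham library, by less than the threshold asks. The sham values were 75.7, 64.0, 67.5, 69.7 and 71.4 CPM and the TAC saline values 58.0, 62.4, 62.5, 56.3 and 57.1. The highest TAC saline library thus lay just under the lowest sham library. The log2 difference was -0.23 ± 0.09 (interval -0.43 to -0.04), and its limma adjusted p was 0.122. TAC NRG1 libraries held 59.3, 73.5, 67.1, 73.6 and 88.6, which spans the sham range and reaches beyond it in library 5. Against TAC saline that was a difference of 0.28 ± 0.09 (limma adjusted p = 0.144), which was 0.17 without libraries 4 and 5, and against sham saline 0.05 ± 0.09, which became -0.07 without them. A GENCODE antisense gene, Gm29331, overlaps the 3′ end of Adcy6 and is not listed in the tables. No source used here states whether the counting used strand, so reads from both strands there cannot be told apart.

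The catalytic subunits of PKA, the part of the enzyme that phosphorylates, are encoded mainly by Prkaca and Prkacb. Prkaca was at 236.3, 211.4, 150.1, 227.8 and 229.9 CPM in sham saline, 200.5, 209.9, 218.7, 208.3 and 197.1 in TAC saline, and 262.2, 272.5, 243.9, 241.7 and 293.7 in TAC NRG1. Every NRG1 library lay above every library of both saline groups, and sham saline 3 lay far under the other sham libraries. Against sham saline Prkaca rose with constriction and NRG1 together by 0.33 ± 0.10 on the log2 scale (1.26-fold, interval 0.13 to 0.53, limma adjusted p = 0.0218). That call is lost when sham saline 3 (adjusted p = 0.064) or TAC NRG1 5 (0.0573) is left out, or TAC NRG1 4 with 5 (0.062), where limma gave 0.0028 to 0.064 over 22 alternatives. Against TAC saline the difference was as large, 0.34 ± 0.10, but its limma adjusted p was 0.078, and 0.049 when only those 2 groups were fitted. Pressure overload alone left -0.01 ± 0.10 (limma adjusted p = 0.965), a value that turned to 0.10 under total reads.

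Prkacb, the second catalytic gene, was at 45.3, 51.3, 56.0, 44.4 and 41.7 in sham saline, 43.5, 42.4, 41.4, 42.4 and 44.4 in TAC saline, and 53.5, 46.2, 48.0, 47.1 and 53.3 in TAC NRG1. The TAC saline libraries lay close together and all under the NRG1 libraries, while the sham libraries covered nearly all of both. The NRG1 difference was 0.21 ± 0.09 (interval 0.02 to 0.40), and it did not pass in limma (adjusted p = 0.284). TAC saline differed from sham saline by -0.15 ± 0.09 (limma adjusted p = 0.358) and TAC NRG1 by 0.06 ± 0.09 (limma adjusted p = 0.724).

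Prkar1a encodes the type I alpha regulatory subunit, which holds catalytic subunits inactive until cyclic AMP binds. Its level in the sham saline libraries was 360.1, 273.9, 293.6, 274.4 and 338.8 CPM. In TAC saline it was 400.4, 324.8, 350.3, 372.2 and 405.1. In TAC NRG1 it was 574.5, 602.9, 682.5, 643.4 and 556.7. The saline groups overlapped in part, and the NRG1 group lay well clear of both, its lowest library above the highest TAC saline library by more than the whole TAC saline range. Under pressure overload alone Prkar1a rose from 308.2 ± 39.2 to 370.6 ± 33.9 (SD, n = 5), a log2 difference of 0.27 ± 0.09 (1.21-fold, interval 0.09 to 0.45, limma adjusted p = 0.0468). The call is close to the threshold: it passed in 13 of 21 alternatives, with adjusted p from 0.0117 to 0.139. It was lost without any 1 of sham saline 2, 3 or 4 or TAC saline 1, 4 or 5, and without the filter on low values.

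In TAC NRG1 Prkar1a averaged 612.0 ± 51.2, which was 1.65-fold the TAC saline level (log2 difference 0.72 ± 0.09) and 1.99-fold the sham level (0.99 ± 0.09). The gene was selected on this rise, so the values carry no test. Libraries 4 and 5 do not set them: without those libraries the differences were 0.74 and 1.01. The 5 genes whose profile over the 15 libraries was most like that of Prkar1a, by the root mean square difference of log2 values after each gene's mean was subtracted, were Ehd4 (0.178), Gpd1 (0.184), Tubb4b (0.185), Atpif1 (0.189) and Tmbim1 (0.192), out of 9484 genes compared, whose median was 0.507. Ehd4, a membrane trafficking ATPase gene, averaged 287.8, 376.9 and 486.7 CPM in sham saline, TAC saline and TAC NRG1. Atpif1, which encodes an inhibitor of the mitochondrial ATP synthase, averaged 233.8, 260.6 and 462.6. The likeness was taken over libraries of 3 groups in which Prkar1a was already known to differ.

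Prkar2a encodes the type II alpha regulatory subunit, which anchoring proteins hold at membranes and the contractile apparatus. Its values were 73.9, 71.4, 104.1, 85.9 and 80.0 in sham saline, 62.6, 84.6, 78.4, 61.9 and 71.8 in TAC saline, and 84.4, 74.4, 67.9, 59.7 and 63.0 in TAC NRG1. All 3 groups overlapped and no rise like that of Prkar1a was seen. The NRG1 difference was -0.04 ± 0.11 with an interval of -0.28 to 0.19 (limma adjusted p = 0.898), and it turned to 0.08 without libraries 4 and 5. Against sham saline the differences were -0.21 ± 0.11 in TAC saline (limma adjusted p = 0.284) and -0.25 ± 0.11 in TAC NRG1 (limma adjusted p = 0.149), the last being -0.13 without libraries 4 and 5.

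Ratios within a library set the subunit transcripts against each other. The log2 ratio of Prkar1a to Prkar2a within a library averaged 1.90 ± 0.31 under sham saline, 2.37 ± 0.31 under TAC saline and 3.14 ± 0.26 under TAC NRG1 (SD, n = 5). Its lowest NRG1 value, 2.77, lay above the highest TAC saline value, 2.68. The log2 ratio of the catalytic to the regulatory sums averaged -0.60 ± 0.23, -0.82 ± 0.12 and -1.13 ± 0.21, with the lowest average in TAC NRG1, although Prkaca was highest there. Here TAC NRG1 (-1.36 to -0.84) overlapped with TAC saline (-0.98 to -0.70). Because Prkar1a was chosen for its rise, these ratios have no test, and they compare transcript ends, not subunit protein.

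**Figure D2:**
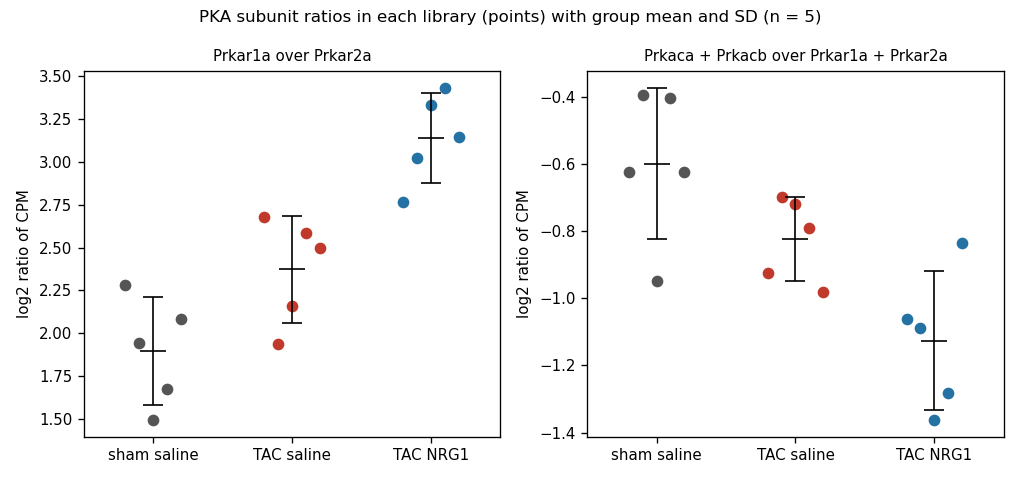
Log2 ratio of CPM (vertical axes) of Prkar1a over Prkar2a and of Prkaca plus Prkacb over Prkar1a plus Prkar2a in each library (points), with group mean and SD (n = 5). The first ratio averages 1.90 in sham saline and 3.14 in TAC NRG1, and the second -0.60 and -1.13.

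Pde4d encodes a cyclic AMP-specific phosphodiesterase found with the beta-1 receptor and the ryanodine receptor. Its level was 37.0, 28.9, 38.4, 28.5 and 38.1 CPM in sham saline, 18.1, 31.9, 25.1, 23.1 and 17.9 in TAC saline, and 28.9, 37.5, 20.8, 35.5 and 52.4 in TAC NRG1. In TAC saline 4 of the 5 libraries lay under every sham library, and library 2 lay inside the sham range. Pde4d fell under pressure overload by 0.58 on the log2 scale (SE 0.19, interval -0.96 to -0.20; to 0.669 of the sham level, limma adjusted p = 0.0458). It passed in 11 of 21 alternatives, with adjusted p from 0.0112 to 0.145, and was lost without sham saline 1, 3 or 5, without TAC saline 1, 4 or 5, under total reads (0.0919), with a robust spread (0.0834) and with every library thinned to the fewest reads (0.0785). With NRG1 the level was 35.0 ± 11.7 (SD, n = 5), wide apart and centred on the sham value of 34.2. Its difference from TAC saline, 0.56 ± 0.19, did not pass in limma (adjusted p = 0.135), though it did without TAC NRG1 3 (0.027), and it was 0.32 without libraries 4 and 5. The difference from sham saline was -0.02 ± 0.19, and -0.26 without libraries 4 and 5.

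Pde4b, a phosphodiesterase of the same family that associates with L-type calcium channels, gave no call in any comparison. It was at 33.0, 32.6, 36.5, 40.4 and 46.2 in sham saline and 39.2, 37.9, 36.5, 37.5 and 43.4 in TAC saline (log2 difference 0.05 ± 0.18, interval -0.31 to 0.42, limma adjusted p = 0.901). In TAC NRG1 it was at 38.8, 34.7, 45.0, 17.4 and 22.8. Libraries 1 to 3 lay in the range of the saline groups, and libraries 4 and 5, the lowest with 37 reads, lay under all others. The NRG1 difference of -0.38 ± 0.18 (limma adjusted p = 0.316) became 0.02 when those libraries were left out, and that from sham saline went from -0.32 to 0.07. The 3 genes most like Pde4b in profile were Usp7 (0.141), Mafg (0.142) and Baz1b (0.148) of 9484 compared, where the median gene was at 0.434. Like Pde4b, all 3 had their widest spread in TAC NRG1 (SD 5.61, 13.3 and 6.11 CPM, against 1.64 to 3.86 in the saline groups). The 3 genes were picked by likeness over these same libraries, so the shared spread follows from the choice.

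Pde3a encodes the cyclic GMP-inhibited phosphodiesterase that acts near phospholamban and the calcium pump. It was at 48.4, 46.3, 58.2, 36.5 and 55.5 in sham saline, 43.8, 34.9, 38.3, 41.2 and 35.2 in TAC saline, and 31.4, 45.7, 44.7, 36.5 and 34.7 in TAC NRG1. Both constricted groups lay low in or under the sham range, and one sham library, number 4, lay among them. TAC saline differed from sham saline by -0.33 ± 0.13 (interval -0.59 to -0.07, limma adjusted p = 0.101) and TAC NRG1 by -0.34 ± 0.13 (limma adjusted p = 0.0674), neither past the threshold. Both passed without sham saline 4 (adjusted p = 0.0281 and 0.0172), and the difference of TAC NRG1 also passed without TAC NRG1 2 (0.0353) or 3 (0.0452) and with every library thinned to the fewest reads (0.031). The constricted groups differed from each other by -0.01 ± 0.13 (interval -0.27 to 0.25, limma adjusted p = 0.974), which was 0.05 without TAC NRG1 4 and 5.

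Within the phosphodiesterases the log2 ratio of Pde4d to Pde4b averaged -0.14 ± 0.27 in sham saline, -0.78 ± 0.42 in TAC saline and 0.16 ± 0.98 in TAC NRG1, where it ran from -1.11 to 1.20. Libraries 4 and 5 stood apart in several of the 10 genes: against the other 3 NRG1 libraries they were both lower in Adrb1, Prkar2a and Pde4b, both higher in Adcy5 and Adcy6, and overlapped in the other 5, Prkar1a among them.

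**Figure D3:**
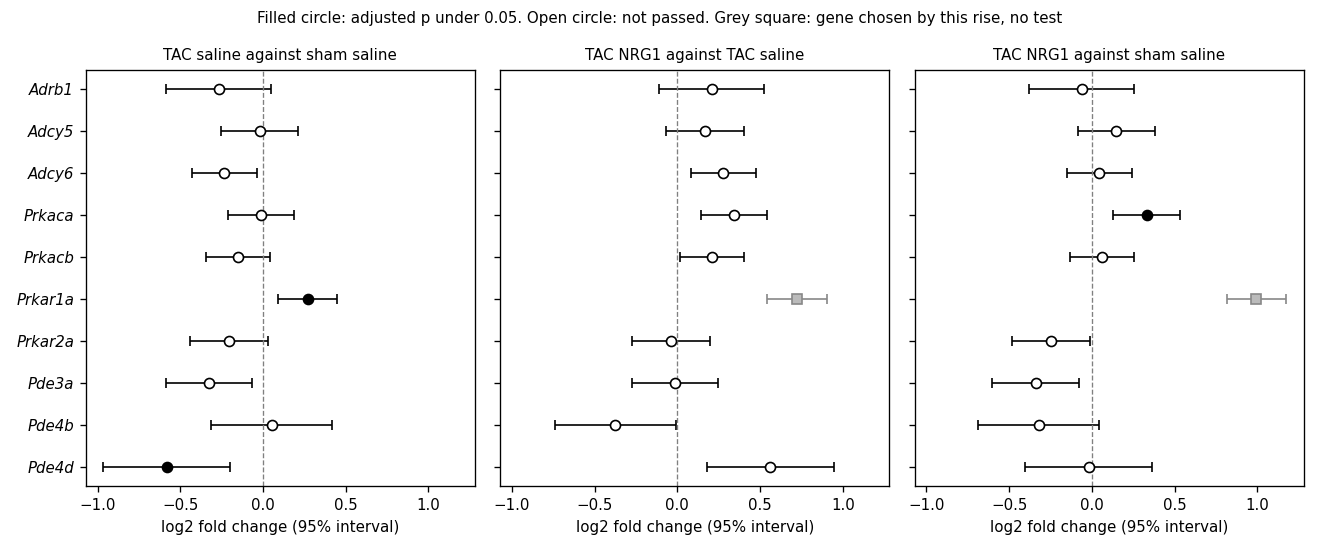
Log2 fold change of each gene (horizontal axes) with its 95% interval from limma in the 3 comparisons; filled circles passed at an adjusted p of 0.05, open circles did not, and grey squares mark Prkar1a in the NRG1 comparisons, where it has no test. The filled circles are Prkar1a and Pde4d under pressure overload and Prkaca in TAC NRG1 against sham saline.

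The rest of the pathway was read from lists by role: 156 further genes, of which 143 were in the tables and 118 were tested. Of the 118, 11 rose and 8 fell in TAC saline against sham saline (16.1%, beside 10.7% of all genes). In TAC NRG1 against TAC saline 2 rose and none fell (1.69%, beside 1.3%), and in TAC NRG1 against sham saline 11 rose and 18 fell (24.6%, beside 16.1%). The 2 genes that rose with NRG1 were Popdc2 and Chrm2.

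Popdc2 encodes a Popeye domain protein, a membrane protein that binds cyclic AMP and is abundant in heart and skeletal muscle. Sham saline averaged 648.7 ± 47.5 CPM, TAC saline 640.7 ± 32.5 and TAC NRG1 981.5 ± 58.0 (SD, n = 5). The lowest NRG1 library, 888.2, lay above the highest of the saline libraries, 712.3. Popdc2 rose with NRG1 by 0.61 ± 0.07 on the log2 scale (1.53-fold, limma adjusted p = 2.04e-05), while pressure overload alone left -0.02 ± 0.07 (limma adjusted p = 0.925). The rise passed in all 22 alternatives. Of its relatives, Bves rose under pressure overload from 85.0 to 110.1 (log2 difference 0.37 ± 0.08, limma adjusted p = 0.00211) with an NRG1 difference of 0.02 ± 0.08 (limma adjusted p = 0.909), and Popdc3 passed in TAC NRG1 against sham saline (0.57 ± 0.12, limma adjusted p = 0.00231) and in neither other comparison. Of the 10 tested genes of this list of other cyclic AMP effectors, 1, 1 and 5 passed in the 3 comparisons; the 5 were Bves, Popdc2, Popdc3 and Rap1a, a small GTPase gene, which rose, and Hcn2, a pacemaker channel gene, which fell. Rap1a and Hcn2, and below Gnai3, Rgs6 and Tnni3, are named after their values were seen.

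Chrm2 encodes the muscarinic receptor through which acetylcholine lowers cyclic AMP. Sham saline averaged 45.3 ± 5.83, TAC saline 37.3 ± 4.77 and TAC NRG1 53.7 ± 8.02 (SD, n = 5). NRG1 libraries spread from 41.1 to 59.7 and the lowest of them lay inside the TAC saline range. Chrm2 rose with NRG1 by 0.52 ± 0.12 (1.44-fold, limma adjusted p = 0.0254). The call was lost without TAC saline 1 (adjusted p = 0.0676) or 3 (0.0589) and when TAC NRG1 4 (0.0844), TAC NRG1 5 (0.0623) or both (0.207) were left out. Of the 10 receptor genes tested, the others that passed anywhere were Calcrl, a receptor for adrenomedullin and related peptides, which rose under pressure overload (0.42 ± 0.12, limma adjusted p = 0.0256), and Adra1a, an alpha-1 adrenergic receptor, which was lower in TAC NRG1 than in sham saline. Adra1a rests on few reads, 15 to 35 per sham library and 0 to 16 per NRG1 library, and averaged 6.50 against 2.85 CPM (limma adjusted p = 0.0467).

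Receptor desensitisation genes gave no call. None of the 6 tested kinases and arrestins passed in limma in any comparison, with 1, 0 and 1 of them at an unadjusted p under 0.05, and limma with voom weights passed none either. Grk2, the main beta receptor kinase of the heart, averaged 46.9 CPM under sham saline, 45.9 under TAC saline and 48.1 under TAC NRG1. Grk5 averaged 19.6, 23.3 and 26.6 in that order.

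Of the 21 G protein genes and their regulators tested, 4 rose and none fell under pressure overload (19.0%, beside 10.7% of all genes). Gnao1, an inhibitory-type alpha subunit, rose from 19.1 to 30.0 CPM (log2 difference 0.64 ± 0.15, limma adjusted p = 0.00788). Gnb1 (0.36 ± 0.08, limma adjusted p = 0.00609) and Gnb2 (0.24 ± 0.07, limma adjusted p = 0.0283), both beta subunits, and Gnai3, an inhibitory alpha subunit (0.39, limma adjusted p = 0.0404), were the others. In TAC NRG1 against sham saline Gnao1 and Gnb1 rose, and Rgs5 and Rgs6, which shorten G protein signals, fell. That was 19.0% of the list, beside 16.1% of all genes. Rgs5 is also a pericyte marker. Among the 5 other cyclases tested, Adcy7 rose under pressure overload from 8.76 to 14.3 (0.70 ± 0.19, limma adjusted p = 0.0159) and stood at 15.4 in TAC NRG1. Adcy7 is known from blood cells, and 6 of the 10 macrophage markers rose in the same comparison, with summed levels of 508.9 to 804.6 in sham saline and 579.4 to 1059 in TAC saline; their part in its rise was not tested.

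Prkar1b and Prkar2b, the other regulatory subunit genes, had too few reads to test. Of 4 further PKA genes tested, 2 fell under pressure overload, Pkia and Pkig, which encode inhibitor peptides that bind free catalytic subunits. Pkia fell from 199.1 to 156.9 CPM, with no overlap between the groups (fell by 0.34 on the log2 scale, SE 0.08, limma adjusted p = 0.00456), and stood at 152.6 with NRG1. Pkig fell from 239.7 to 188.7 (fell by 0.36, SE 0.10, limma adjusted p = 0.0162) and stood at 224.9 with NRG1, a difference of 0.27 ± 0.10 from TAC saline that did not pass (limma adjusted p = 0.168). Of the 14 anchoring protein genes tested, 1 passed under pressure overload (7.14%, beside 10.7% of all genes). In TAC NRG1 against sham saline 2 passed (14.3%, beside 16.1%). Cmya5, which encodes myospryn, fell under pressure overload from 291.3 to 210.6 (fell by 0.47, SE 0.09, limma adjusted p = 0.00165) and stood at 196.3 with NRG1. Akap1, which tethers PKA at mitochondria, averaged 105.6, 83.6 and 66.9 in sham saline, TAC saline and TAC NRG1, with a pass in TAC NRG1 against sham saline (fell by 0.66, SE 0.11, limma adjusted p = 0.000233). Akap1 did not pass under pressure overload (-0.34 ± 0.11, limma adjusted p = 0.0559) or against TAC saline (-0.32 ± 0.11, limma adjusted p = 0.165). With voom weights limma passed 2 of the 14 anchoring protein genes under pressure overload.

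Of the 10 other genes tested in the phosphodiesterase list, 2, Pde4dip and Pde6d, encode no phosphodiesterase enzyme. The enzymes of the list are not all specific for cyclic AMP. Pde8a rose under pressure overload from 15.6 to 21.6 (0.48 ± 0.13, limma adjusted p = 0.0168), with no overlap between the groups. Pde4a and Pde7a, both cyclic AMP-specific, did not pass there (limma adjusted p = 0.0735 and 0.336), though every TAC saline library of Pde4a lay under every sham library. Both genes were lower in TAC NRG1 than in sham saline (fell by 0.47, SE 0.11, and by 0.55, SE 0.14, limma adjusted p = 0.00656 and 0.0107). None of the list passed in TAC NRG1 against TAC saline, and limma with voom weights passed none there. In that comparison 3 of the 10 had an unadjusted limma p under 0.05, beside 1691 of all 11018 genes tested.

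Targets of PKA in the contractile cell were listed together with the phosphatases that reverse its action: of 21 tested, 2 rose and 4 fell under pressure overload (28.6%, beside 10.7% of all genes). Hspb6, a small heat shock protein phosphorylated by PKA, rose from 1120 to 1883 CPM (0.75 ± 0.08, 1.69-fold, limma adjusted p = 4.15e-06). Rrad, which restrains the L-type calcium channel until PKA phosphorylates it, rose from 257.7 to 335.1 (0.41 ± 0.13, limma adjusted p = 0.0379). Phospholamban, the calcium pump's brake, fell: Pln went from 5344 to 4030 (fell by 0.42, SE 0.09, limma adjusted p = 0.00425), with no overlap. Ppp1r3a, a glycogen-targeting phosphatase subunit (fell by 0.58, SE 0.14), Ryr2, the ryanodine receptor (fell by 0.29, SE 0.09), and Tnni3, cardiac troponin I (11460 to 8518), fell as well, with limma adjusted p of 0.00757, 0.0397 and 0.00944. Pln, Ryr2 and Tnni3 are also cardiomyocyte markers, and they are the 3 of those 11 markers that fell in this comparison; of the other 8, Actc1 rose and 7 did not pass. None of the 21 genes passed in limma in TAC NRG1 against TAC saline, with or without voom weights. In that comparison 4 of the 21 had an unadjusted limma p under 0.05, beside 1691 of all 11018 genes tested. Tnni3 is among the most abundant transcripts, and quantile normalization, which gives every library the same set of values, ended its call under pressure overload (limma adjusted p = 1.0) and turned its called difference of -0.35 in TAC NRG1 against sham saline to 0.05.

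Of 17 tested genes in a list of CREB relatives, coactivators and target genes, 1 rose and 1 fell under pressure overload. That was 11.8%, beside 10.7% of all genes. Creb3l2, an endoplasmic reticulum-bound relative of CREB, rose (0.42 ± 0.11, limma adjusted p = 0.0189) and Crebl2 fell (fell by 0.54, SE 0.18, limma adjusted p = 0.046). Ppargc1a, the coactivator of mitochondrial gene expression and a known CREB target, averaged 72.2, 58.1 and 40.2 CPM in sham saline, TAC saline and TAC NRG1. It passed in the comparison of TAC NRG1 with sham saline (fell by 0.88, SE 0.15, 1.84-fold lower, limma adjusted p = 0.000193) and not in that with TAC saline (fell by 0.57, SE 0.15, limma adjusted p = 0.055). Crtc3 and Crebbp, both coactivators of CREB, were also lower in TAC NRG1 than in sham saline (limma adjusted p = 0.0177 and 0.0221). In that comparison 4 of the 17 genes fell and 1 rose, 29.4% beside 16.1% of all genes. The 1 that rose was Creb3l2 (0.38 ± 0.11, limma adjusted p = 0.0251).

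Of the 19 pathway calls under pressure overload, 8 passed in every alternative: Bves, Cmya5, Gnao1, Gnb1, Hspb6, Pkia, Pln and Ppp1r3a. The other 11 were lost in one or more, most often without a single library. Without TAC saline 1, Adcy7, Pde8a, Pkig, Creb3l2, Crebl2, Gnai3, Gnb2, Rrad and Ryr2 no longer passed, and without TAC saline 5 Calcrl and the same genes other than Pde8a. Calcrl was also lost without TAC saline 2 or 4 or sham saline 1 or 5, Pde8a without sham saline 5, Pkig without sham saline 3, and Creb3l2 without sham saline 4 or 5. Crebl2, Gnai3, Gnb2, Rrad and Ryr2 were each lost without any 1 of at least 6 libraries. In TAC NRG1 against sham saline 13 of 29 calls passed in every alternative, among them Adcy7, Akap1, Cmya5, Popdc2, Popdc3, Ppargc1a and Ryr2. Without TAC NRG1 4 and 5 together Adra1a (adjusted p = 0.139), Pde4a (0.0896), Pde7a (0.0829), Crtc3 (0.0823), Crebbp (0.273), Rgs6 (0.0695), Pde8a (0.115), Crebl2 (0.0505) and Ppp1r3a (0.0503) did not pass. With thinned libraries Rgs6 (0.329), Crtc3 (0.183), Gnao1 (0.0747) and Hcn2 (0.0672) were among the calls lost, and under total reads Rgs5 (0.0774) and Rgs6 (0.0559). In TAC NRG1 against sham saline Pde8a passed in 7 and Ppp1r3a in 11 of 22 alternatives. Each passed in 2 of 10 fits with 1 library left out (limma adjusted p up to 0.144 and 0.15). Crebl2 and Creb3l2 each passed in 6 of those 10 fits, and Pln in 5. Adra1a was also lost without any 1 of the sham libraries or without TAC NRG1 5, Gnao1 without sham saline 1 or TAC NRG1 3, Crtc3 without sham saline 4 or TAC NRG1 1, Crebbp without sham saline 3 or 4 or TAC NRG1 4 or 5, Rgs6 without sham saline 1, 2 or 5 or TAC NRG1 1 or 3, and Tnni3 without sham saline 1, 2, 3 or 5 or TAC NRG1 1 or 3.

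**Figure D4:**
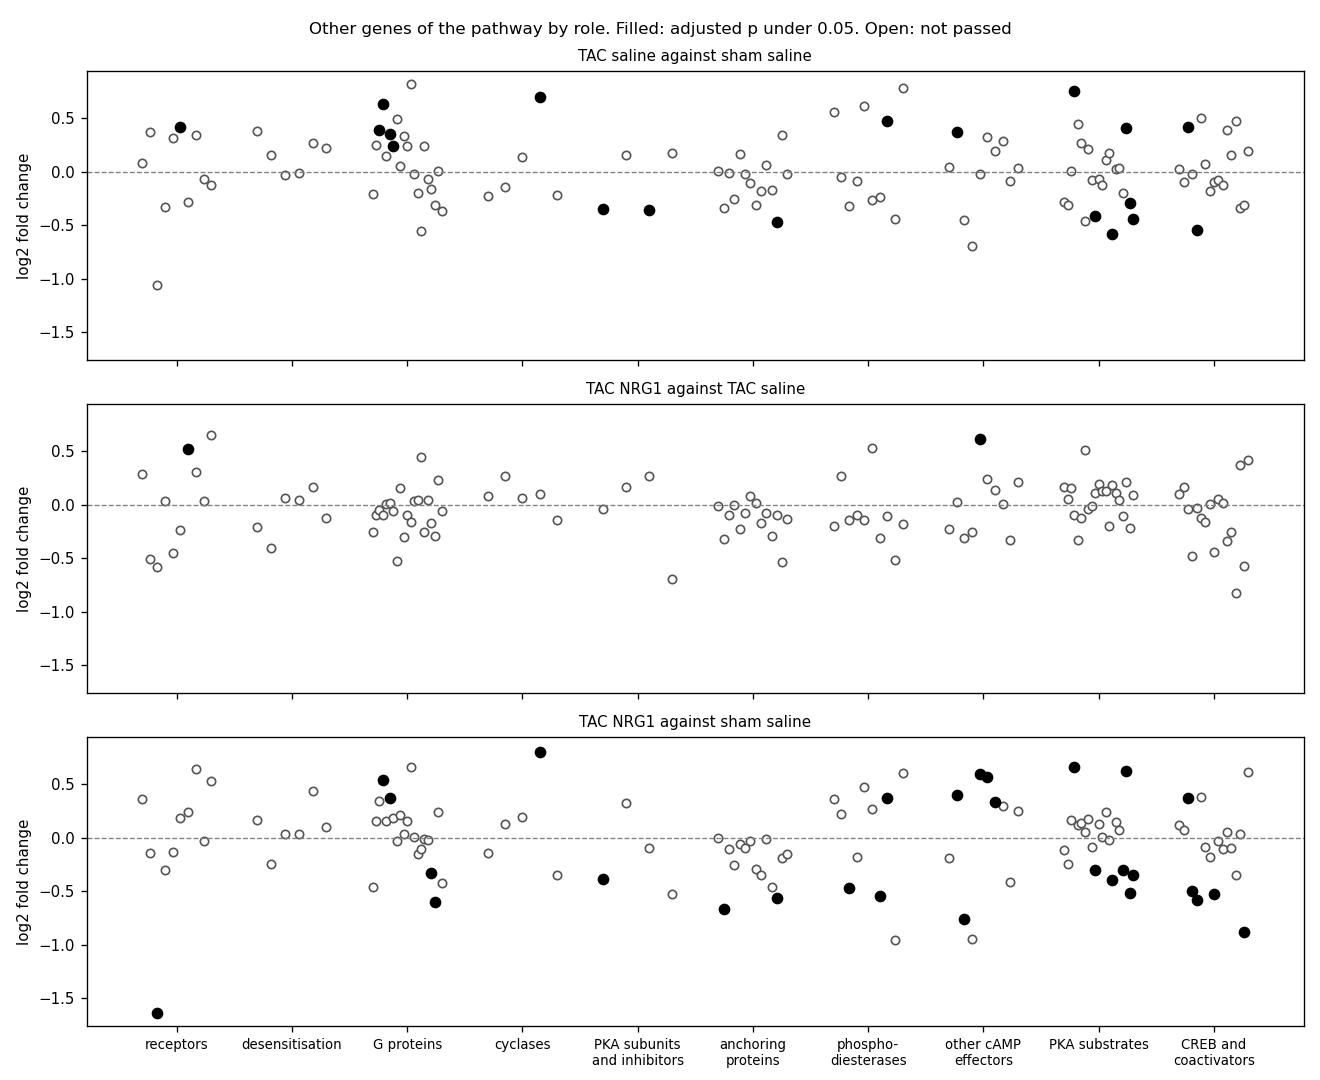
Log2 fold change (vertical axes) of the 118 further genes of the pathway, one point a gene, by role (horizontal axis), in the 3 comparisons; filled points passed at an adjusted p of 0.05 in limma. The middle panel has 2 filled points, Chrm2 among the receptors and Popdc2 among the other cyclic AMP effectors, and the upper and lower panels have 19 and 29.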

How the data were processed

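The authors deposited 1 table per library with a log2 value for each of 15258 genes; the values fit log2 of reads plus 0.5, scaled per library, since turning them back gave whole reads within 0.05 for 98.9% to 99.5% of values (all of those under 1000 reads). The submitters' processing notes name genome build GRCm39; the aligner, the counter and the strand setting were not given in the sources used here. CPM are the deposited values taken off the log2 scale and divided by 1000. Genes with at least 2.95 CPM in 5 libraries and 15 reads in all were tested (11018; 4240 left out). The deposited log2 values entered limma 3.58.1 under R 4.3.3 with the 15 libraries together (group means, spread following the level), two-sided, with Benjamini-Hochberg adjustment over all genes tested and a threshold of 0.05; the script was checked on simulated data. No libraries were identical or within sampling noise of each other (chi-square per degree of freedom 2.16 to 10.9 within groups). The median SE of a log2 difference was 0.16.

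The members and lists were chosen with earlier results of these data known. Named were all 10 members; per pathway list the genes past the threshold with the smallest adjusted p, at most 3 per comparison, or the most abundant where none passed; and the genes nearest in profile to Prkar1a, Adrb1 and Pde4b with a mean of at least 5 CPM. The lists also hold genes outside their heading: Pde12 and Smarcc1, Pde4dip and Pde6d among the phosphodiesterases, and phosphatase genes among the PKA targets. Alternatives were other scalings, filters, weights, a larger pseudocount, robust spread, fewer groups, the replicate number as a block, thinned libraries and left-out libraries. Lymphocyte and adipocyte markers had too few reads to test, as had most nerve markers. Promoter sequences are RefSeq's.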

Additional observations from a re-analysis of the deposited data

Results flagged for a closer look

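Prkaca in sham saline was marked because 1 library lies far from the other 4. Sham saline 3 held 150.1 CPM against 211.4 to 236.3 in the rest, and its gap to the nearest library was 0.755 of the group's whole range, above the 95% critical value of 0.71 for 5 libraries. Of 30 groups checked, 10 genes in 3 groups, this was the 1 that met the rule, and chance marks about 1 in 20. Without that library the call of Prkaca in TAC NRG1 against sham saline was lost (limma adjusted p = 0.064).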

How the results depend on the processing

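The count of members that passed under pressure overload, 2, was 1 under total reads, 1 without the filter on low values, 1 with a robust spread, 0 with the replicate number as a block and 1 with thinned libraries, and 0 to 2 when libraries were left out in turn. In TAC NRG1 against TAC saline the count of 0 became 1 when only those 2 groups were fitted (Prkaca) and ran from 0 to 1 with a library left out (Pde4d without TAC NRG1 3). In TAC NRG1 against sham saline the count of 1 became 0 without TAC NRG1 4 and 5 and 2 with thinned libraries, and ran from 0 to 2 with a library left out. The wider pathway's 19 calls under pressure overload ran from 10 to 25 with a library left out. Its 2 calls in TAC NRG1 against TAC saline became 4 under quantile normalization, 1 with only 2 groups, 1 without libraries 4 and 5 and 4 with thinned libraries, and ran from 1 to 4. Over all genes that comparison called 143, 74 higher, but 39 without libraries 4 and 5 and 122, 50 higher, under quantile normalization.

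Replicate numbers did not pair the libraries: same-numbered libraries' deviations from their group means correlated at -0.233 to 0.081, and differently numbered ones reached 0.199. The replicate block took away the calls of Prkar1a (adjusted p = 0.0636) and Pde4d (0.0625) under pressure overload, and those of Crebl2 (0.0669) and Gnai3 (0.052) there; in TAC NRG1 against sham saline it took away Pde8a (0.059), Pln (0.0521) and Tnni3 (0.0701).

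Among differences that changed sign, 1 had a call: Tnni3 in TAC NRG1 against sham saline, -0.35 with a limma adjusted p of 0.0314, was 0.0516 under quantile normalization. The others had no call, and the cause was not tested. Under total reads Adrb1 in TAC NRG1 against sham saline was 0.0332, Adcy5 under pressure overload 0.0896, Prkaca under pressure overload 0.0988 and Pde4d in TAC NRG1 against sham saline 0.0739. Prkaca under pressure overload was 0.0294 under quantile normalization and 0.0246 with thinned libraries, where Prkacb in TAC NRG1 against sham saline was -0.0021, Pde4d there 0.0381 and Prkar2a in TAC NRG1 against TAC saline 0.0351. With voom weights Adrb1 in TAC NRG1 against sham saline was 0.0082 and Pde3a in TAC NRG1 against TAC saline 0.0196. Without libraries 4 and 5, Adrb1 (0.207), Adcy6 (-0.067) and Pde4b (0.0697) turned against sham saline, and Prkar2a (0.0772), Pde3a (0.0548) and Pde4b (0.017) against TAC saline. With a library left out, Adrb1 in TAC NRG1 against sham saline ran from -0.139 to 0.0601, Adcy6 there from -0.0297 to 0.115, and Pde4d there from -0.181 to 0.153. Adcy5 under pressure overload ran from -0.094 to 0.0402 and Prkaca from -0.129 to 0.0343, and Prkar2a in TAC NRG1 against TAC saline from -0.112 to 0.0204 and Pde3a from -0.0779 to 0.0576. Depth limits the least abundant: Pde4b rested on as few as 37 reads in a library.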
